A study of Mus musculus with 6 samples.

Results

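The proteasome is the protease that degrades most short-lived and damaged proteins of the cell, and its subunit and regulator genes are described here in primary mouse muscle stem cells treated with 11,12-EET. The genes were taken as every row of the count table whose symbol starts with Psma to Psmg followed by a number, with pseudogene rows (symbols ending in -ps and similar) left out. This gave 50 of the 55494 rows of the table. One of them, Psmc3ip, carries a name derived from Psmc3 but encodes Hop2, a meiotic recombination factor, rather than a part of the proteasome, so 49 proteasome genes are counted below and Psmc3ip is given on its own.

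The data came from 6 poly(A) RNA libraries of wild-type mouse muscle stem cells kept in culture for 2 days, 3 with 11,12-EET (EET libraries) and 3 without it (control libraries). 11,12-EET, an epoxyeicosatrienoic acid, is a lipid mediator formed from arachidonic acid by cytochrome P450 enzymes. The labels state neither a dose nor the make-up of the control culture, and they do not say whether libraries of a group came from separate mice or dishes, so the p-values below measure only how far these libraries differ among themselves, which may be technical variation. The libraries held 30371291 to 37243882 counts.

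The core particle of the proteasome is a barrel of stacked rings: the outer rings are built from alpha subunits (Psma genes), which gate the entrance, and the inner rings from beta subunits (Psmb genes), 3 of which cut peptide bonds. A regulatory particle caps the barrel. Its base contains a ring of ATPases (Psmc genes) that unfold the substrate, and its lid contains the enzyme that removes the ubiquitin chain. In skeletal muscle the ubiquitin and proteasome system is known for its part in protein breakdown during atrophy, and myogenic cells need proteasome activity to proliferate and differentiate. Proteasome genes are commonly transcribed together, and the transcription factor Nrf1 (Nfe2l1) raises them when proteasome activity is insufficient, through antioxidant-response-type elements in their promoters.

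All of the 8 muscle stem cell markers examined (Pax7, Myf5, Myod1, Vcam1, Itga7, Cdh15, Sdc4 and Chodl) were detected in each of the 6 libraries. Their summed level was 3039.8, 3059 and 3118 TMM-scaled CPM (counts scaled to a library of 1e6) in EET libraries and 3034, 2866 and 2835 CPM in controls. Pax7, the defining gene, was at 81.9, 85.2 and 83.2 CPM with EET and 109, 116 and 118 CPM in controls. Pax7 fell as counted (log2 fold change −0.45), Myf5, Myod1 and Sdc4 rose by 0.26, 0.25 and 0.19, and 4 markers did not pass. With the mRNA-length trend described further on removed Pax7 stood at −0.049 without passing, and 1 of the 8, Myod1, was lower and 0 higher. With coding length 3 were higher and 3 lower, among them Pax7 at −0.52. The 6 endothelial markers summed to 144, 141 and 163 CPM with EET and 258, 274 and 265 CPM in controls. The 8 leukocyte markers summed to 361, 192 and 181 CPM with EET and 289.8, 298 and 321 CPM in controls, and the 5 fibro-adipogenic markers to 219, 218 and 228 CPM with EET and 245, 248 and 245 CPM in controls. The endothelial sum was therefore lower in every EET library, although Emcn, one of the 6 genes, overlapped between the groups, 1 EET library held more leukocyte marker counts than the other EET libraries, and no marker was at 0 in a whole group. The endothelial markers have long mRNAs, with a median of 4324.5 bases. As counted 5 of the 6 were lower, with a median log2 fold change of −0.83 (23.3% of all genes were lower). With the mRNA-length trend removed 5 were lower, with a median of −0.58 (all genes, 17.1%). With coding length 4 were lower, with a median of −0.49 (all genes, 19.7%). The part of the endothelial, leukocyte and fibro-adipogenic cells in the results below was not tested. In bulk RNA, a smaller number of cells of a type and less RNA per cell cannot be told apart.

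The promoter windows of the proteasome genes were searched for the element through which Nrf1 is known to act. The windows run from 250 bases before to 50 bases after each RefSeq start site on GRCm38.p6, and 41 of the proteasome genes had one or more (44 windows). An antioxidant-response-type motif, TGACNNNGC or TGAGNNNGC on either strand, was found in 17 of the 44 windows (38.6%), against 27.8% of all 32851 windows of the table. In the core genes it was found in 8 of 12 windows (66.7%), in base genes in 3 of 9, in lid genes in 2 of 6, and in immunoproteasome genes in 0 of 4. The TGAC form alone was in 13.6% of proteasome windows and 12.4% of all windows, and the TGAG form in 29.5% and 17.6%. The letters CCAAT were in 31.8% of proteasome windows and 37.4% of all windows. An interferon-response-type motif, a pair of GAAA runs with 2 bases between them, was in 11.4% of proteasome windows and 3.44% of all windows, but in 0 of the 4 windows of immunoproteasome genes. These are letter matches only, and forms can occur together in a window, as both antioxidant forms did in Psmc6 and Psmd12.

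Windows of 5 genes with an antioxidant-type match are printed 5′ to 3′, with the match in capitals. They are Psma7, the core gene with the largest fold change as counted, Psmb5 and Psmb6, a pair of catalytic subunits with the TGAC form, and Psmd1 and Psme4, the genes of the family that fell as counted.
Psma7, chr2:180042415-180042714, minus strand: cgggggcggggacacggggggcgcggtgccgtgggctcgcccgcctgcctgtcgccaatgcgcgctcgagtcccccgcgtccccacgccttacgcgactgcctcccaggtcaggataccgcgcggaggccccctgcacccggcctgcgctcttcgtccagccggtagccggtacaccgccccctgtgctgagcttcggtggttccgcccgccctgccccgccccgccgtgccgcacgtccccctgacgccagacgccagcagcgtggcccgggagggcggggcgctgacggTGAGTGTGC
Psmb5, chr14:54617946-54618245, minus strand: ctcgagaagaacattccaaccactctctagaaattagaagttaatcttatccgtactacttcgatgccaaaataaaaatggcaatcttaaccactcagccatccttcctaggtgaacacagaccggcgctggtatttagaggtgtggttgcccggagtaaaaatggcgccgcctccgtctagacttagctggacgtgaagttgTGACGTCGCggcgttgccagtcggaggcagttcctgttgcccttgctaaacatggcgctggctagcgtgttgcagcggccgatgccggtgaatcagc
Psmb6, chr11:70525107-70525406, plus strand: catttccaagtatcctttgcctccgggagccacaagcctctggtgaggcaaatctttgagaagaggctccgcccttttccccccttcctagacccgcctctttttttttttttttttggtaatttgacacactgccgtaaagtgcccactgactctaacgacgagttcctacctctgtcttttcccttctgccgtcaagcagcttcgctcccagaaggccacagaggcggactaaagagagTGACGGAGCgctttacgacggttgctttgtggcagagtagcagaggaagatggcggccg
Psmd1, chr1:86064369-86064668, plus strand: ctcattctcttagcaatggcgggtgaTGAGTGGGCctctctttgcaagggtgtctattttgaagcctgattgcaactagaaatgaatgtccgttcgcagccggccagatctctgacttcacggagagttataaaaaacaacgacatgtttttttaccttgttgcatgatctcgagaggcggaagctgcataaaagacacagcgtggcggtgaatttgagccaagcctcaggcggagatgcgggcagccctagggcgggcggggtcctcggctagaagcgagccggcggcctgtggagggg
Psme4, chr11:30771525-30771824, plus strand: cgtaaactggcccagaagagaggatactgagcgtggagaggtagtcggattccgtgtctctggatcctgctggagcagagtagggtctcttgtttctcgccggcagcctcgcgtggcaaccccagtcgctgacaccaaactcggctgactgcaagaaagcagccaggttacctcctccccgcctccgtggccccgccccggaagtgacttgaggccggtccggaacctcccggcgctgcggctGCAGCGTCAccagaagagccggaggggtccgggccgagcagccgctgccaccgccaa
The match began at base −47 from the start site in Psmb5, at −9 in Psmb6 and at 41 in Psma7. In Psmd1 it lay at −224 and in Psme4 at −7. Among these 5 genes the letters were present in genes that rose and in genes that fell as counted. With the coding-length trend described further on removed, Psmd1 stood at 0.015 without passing and Psme4 was higher, at 0.32. A link between the letters and the direction was not tested.

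Most proteasome genes were higher in the EET libraries. Of the 49 genes 47 had enough counts to be tested, and 41 of these rose and 2 fell at a Benjamini-Hochberg adjusted p under 0.05 in edgeR's quasi-likelihood test over 16097 genes. Over all genes tested 24.6% rose and 23.3% fell. The median log2 fold change of the 47 genes was 0.69, against 0.0050 over all genes. Their summed level was 9733, 9451 and 8541 CPM in EET libraries and 7264, 6797 and 6541 CPM in controls. The 3 EET libraries were all above the 3 controls for 41 proteasome genes and all below for 4, which compares with 29.6% and 28.0% of all genes tested. Of the EET libraries, EET 3 had the lowest level in each of the 41 genes that rose, and of the controls, control 1 had the highest in 39 of them. As described further on, shorter mRNAs were in general higher with EET, and with that trend removed 14 proteasome genes were higher and 9 lower. Of the 41 genes that rose 13 were still higher then and 5 were lower, and of the 2 that fell 1 was still lower.

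**Figure D1:**
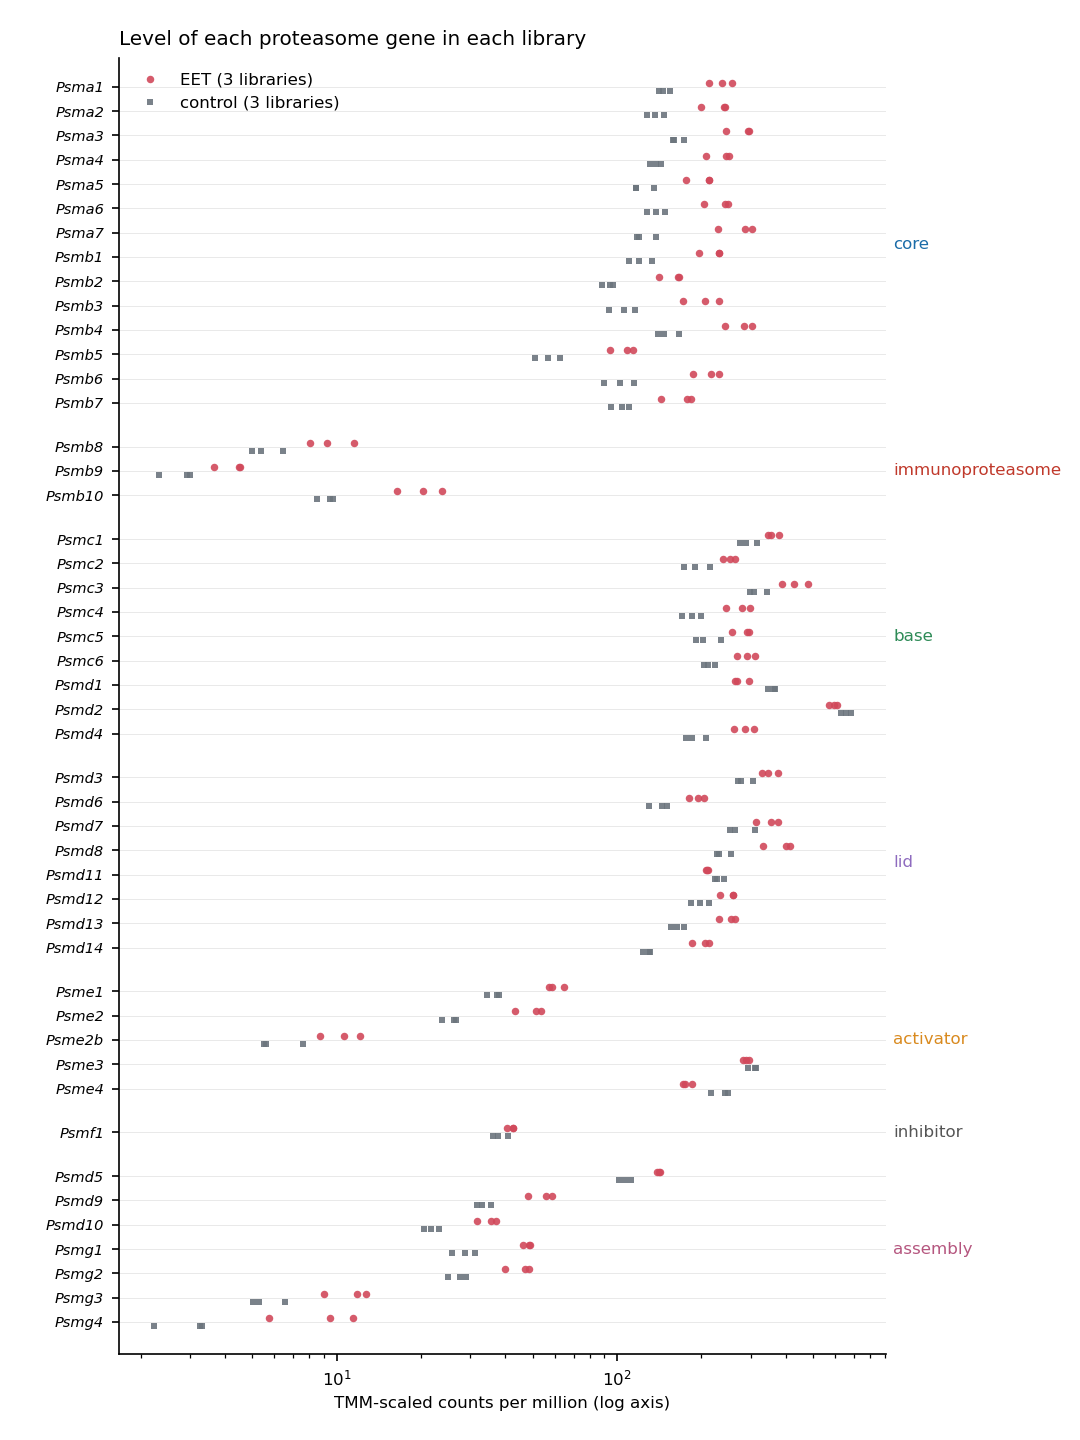
Level of each of the 47 tested proteasome genes in each library, as TMM-scaled CPM on a log axis, with genes grouped by their place in the complex. Circles are the 3 EET libraries and squares the 3 control libraries. EET points lie to the right of control points in the core, immunoproteasome and assembly rows, and to the left in Psmd1, Psmd2, Psmd11 and Psme4.

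All 14 tested genes of the standard core particle rose as counted, by log2 fold changes of 0.68 to 1.12 with a median of 0.76 (24.6% of all genes rose). With the mRNA-length trend described further on removed 5 were higher and 1 lower, with a median of 0.049 (all genes, 17.1% and 17.1%). With coding length 14 were higher and 0 lower, with a median of 0.49 (all genes, 21.9% and 19.7%). The summed level of the core genes was 3234, 3179 and 2647 CPM with EET and 1839, 1674 and 1598 CPM in controls. The 7 tested alpha subunit genes had a median log2 fold change of 0.75 and the 7 beta subunit genes one of 0.87. The 15th core gene, Psma8, encodes an alpha subunit of the testis proteasome and had at most 0.228 CPM in any library.

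Among the alpha genes Psma7 (GRCm38 chr2:180036374-180042433, minus strand) changed most. It had 302, 287 and 229 CPM in EET libraries and 138, 118 and 119 CPM in controls (log2 fold change 1.12 ± 0.098 SE, edgeR adjusted p = 1.68e-06). The lowest EET library was well above the highest control. Psma1, Psma2, Psma3, Psma4, Psma5 and Psma6 rose by 0.68, 0.72, 0.76, 0.77, 0.70 and 0.75 on the log2 scale, a range narrower than the distance of any of them from Psma7. Psma3, for example, had 292, 294 and 245 CPM with EET and 174, 159.99 and 158 CPM in controls, and the groups did not overlap. Psma4 and Psma5 each overlap a short stretch of an antisense gene in the GENCODE annotation, and since no source used here says whether reads were assigned by strand, reads of such pairs cannot be told apart.

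The catalytic beta genes rose with the others. Psmb5 (chr14:54614119-54618022, minus strand), whose product cuts after hydrophobic residues, had 114, 109 and 94.5 CPM with EET and 62.4, 56.6 and 50.8 CPM in controls (log2 fold change 0.90 ± 0.090). Psmb6 (chr11:70525367-70527858, plus strand), which cuts after acidic residues, had 230.1, 216 and 186 CPM with EET and 115, 102 and 90.0 CPM in controls (log2 fold change 1.04 ± 0.096). Psmb7 (chr2:38588036-38644087, minus strand), which cuts after basic residues, had 183, 177 and 144 CPM with EET and 110.3, 104 and 95.1 CPM in controls (log2 fold change 0.70 ± 0.091). Of the 3, Psmb6 had the largest fold change and Psmb7 the smallest, and in none did the groups overlap (edgeR adjusted p at most 2.31e-05). Psmb7 shares 405 exonic bases with the antisense gene Nek6. The other beta genes, Psmb1, Psmb2, Psmb3 and Psmb4, have no catalytic site of their own and rose by 0.86, 0.76, 0.95 and 0.87 on the log2 scale.

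The base of the regulatory particle had a smaller median fold change than the core as counted, a difference that was not tested. Of its 9 genes 7 rose and 1 fell (all genes, 24.6% and 23.3%), and their median log2 fold change was 0.42. With the mRNA-length trend described further on removed 2 were higher and 4 lower, with a median of 0.0082 (all genes, 17.1% and 17.1%). With coding length 8 were higher and 0 lower, with a median of 0.32 (all genes, 21.9% and 19.7%). The summed level was 3171, 3033 and 2903 CPM with EET and 2783, 2589 and 2467 CPM in controls. The 6 ATPase genes Psmc1 to Psmc6 all rose, by 0.30, 0.38, 0.45, 0.57, 0.42 and 0.44 on the log2 scale. Psmc4 had the largest fold change among them, with 298, 279 and 244 CPM with EET and 199, 185 and 170.2 CPM in controls. Psmc1 had the smallest, with 377, 355 and 345 CPM with EET and 315, 288 and 274 CPM in controls, groups that were still apart (edgeR adjusted p = 0.00263). Psmc3 shares 215 exonic bases with the antisense gene Slc39a13.

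The non-ATPase genes of the base did not move as a set. Psmd4, a receptor for ubiquitin chains, rose and had 309, 285 and 261 CPM with EET and 208, 185 and 177 CPM in controls (log2 fold change 0.59 ± 0.080). Psmd1 (chr1:86064387-86139151, plus strand), a large scaffold subunit, fell and had 267, 264 and 294 CPM with EET and 366, 363 and 346 CPM in controls (log2 fold change −0.38 ± 0.067, edgeR adjusted p = 0.000262). It shares 301 exonic bases with Gm21972 on the same strand and 252 with the antisense gene Htr2b. Psmd2 (chr16:20651652-20663414, plus strand), the scaffold on which shuttle proteins dock, had 594, 568 and 606 CPM with EET and 681, 655 and 630.1 CPM in controls. All 3 EET libraries of Psmd2 lay below the controls, but the difference did not pass the threshold (log2 fold change −0.15 ± 0.064, edgeR adjusted p = 0.0619). It passed as lower under DESeq2, with RLE scaling or library totals, with limma-voom and under several other alternatives, and as higher, at 0.20, with the coding-length trend described further on removed.

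Of the 8 lid genes 7 rose and 0 fell in edgeR (all genes, 24.6% and 23.3%), with a median log2 fold change of 0.39. DESeq2 also gave 0 lower, and 1, Psmd11, was lower at an unadjusted p under 0.05 in edgeR. With the mRNA-length trend described further on removed 3 were higher and 3 lower, with a median of 0.030 (all genes, 17.1% and 17.1%). With coding length 6 were higher and 1 lower, with a median of 0.41 (all genes, 21.9% and 19.7%). The summed level of the lid genes was 2303, 2227 and 2014 CPM with EET and 1761, 1640.5 and 1575 CPM in controls. Psmd8 had 415, 399.6 and 332 CPM with EET and 254, 230.4 and 227 CPM in controls, the largest fold change in the lid (log2 0.69 ± 0.084). Psmd14 (chr2:61711694-61800376, plus strand), the metalloprotease that cuts the ubiquitin chain from the substrate, had 206, 214 and 185 CPM with EET and 131, 123 and 129.6 CPM in controls (log2 fold change 0.65 ± 0.071, edgeR adjusted p = 5.47e-06). In both genes the groups were clearly apart. Psmd3, Psmd6, Psmd7, Psmd12 and Psmd13 rose by 0.30, 0.44, 0.33, 0.34 and 0.60 on the log2 scale. In Psmd7, which pairs with Psmd14, the lowest EET library was 313 CPM and the highest control 311 CPM, so the groups nearly touched. Psmd11, which helps to hold lid and core together, had 211, 210.1 and 208 CPM with EET and 223, 240.4 and 228 CPM in controls, and did not pass the test (log2 fold change −0.14 ± 0.063, edgeR adjusted p = 0.0907). It passed as lower with library totals in place of TMM scaling, at −0.20. Psmd13 shares 342 exonic bases with the antisense gene Sirt3.

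The activators that can replace the regulatory particle went different ways. Psme1 and Psme2 encode the subunits of the interferon-inducible cytoplasmic activator. Psme1 had 64.8, 58.6 and 57.1 CPM with EET and 37.3, 37.8 and 34.4 CPM in controls (log2 fold change 0.72 ± 0.082). Psme2 had 53.5, 51.3 and 43.3 CPM with EET and 26.6, 26.2 and 23.7 CPM in controls (log2 fold change 0.95 ± 0.096). Both rose without overlap of the groups. Psme2b, a near-copy of Psme2, had 10.6, 12.2 and 8.73 CPM with EET and 7.59, 5.49 and 5.60 CPM in controls (log2 fold change 0.75 ± 0.17), and how reads were split between the copies is uncertain.

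Psme3, which forms the related nuclear activator, had 288, 282 and 295 CPM with EET and 292, 311 and 313 CPM in controls, with overlapping groups and no call (log2 fold change −0.083 ± 0.063, edgeR adjusted p = 0.309). Psme4 (chr11:30771726-30880361, plus strand), the large single-chain nuclear activator, fell and had 172, 175 and 185 CPM with EET and 216, 244 and 248 CPM in controls (log2 fold change −0.41 ± 0.071, edgeR adjusted p = 0.000221). Its 3 EET libraries were all lower than the lowest control. The summed level of the 5 activator genes was 589, 578 and 589 CPM with EET and 579.6, 624 and 625 CPM in controls, and these groups overlapped. Psmf1, an inhibitor of the core particle in biochemical assays, had 42.5, 42.6 and 40.6 CPM with EET and 40.8, 36.0 and 37.7 CPM in controls. These groups overlapped (log2 fold change 0.13 ± 0.082, edgeR adjusted p = 0.196). Psmf1 was higher with the mRNA-length trend removed, at 0.28, and with the principal transcript, at 0.31, and stood at −0.13 with coding length without passing.

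The immunoproteasome genes were low in these cells. Psmb8, Psmb9 and Psmb10 encode the beta subunits that take the places of Psmb5, Psmb6 and Psmb7 in immune cells and after interferon gamma, and that favour peptides for class I antigen presentation. All 3 rose. Psmb10 (chr8:105935735-105938444, minus strand) had 20.2, 23.8 and 16.4 CPM with EET and 9.72, 8.49 and 9.48 CPM in controls (log2 fold change 1.13 ± 0.13, edgeR adjusted p = 1.06e-05). Psmb8 had 11.5, 9.21 and 8.05 CPM with EET and 6.44, 5.01 and 5.37 CPM in controls (log2 fold change 0.78 ± 0.16). Psmb9 had 4.50, 4.48 and 3.67 CPM with EET and 2.92, 2.33 and 2.99 CPM in controls (log2 fold change 0.62 ± 0.19, edgeR adjusted p = 0.0158). The groups were apart in each, most widely in Psmb10. The call of Psmb9 was lost without EET 1, without EET 2 or without control 2, with edgeR adjusted p values of 0.052, 0.058 and 0.079. Psmb9 shares 212 exonic bases with the antisense gene Tap1 and Psmb8 shares 498 with Gm20496. Psmb11, the beta subunit of thymic epithelium, was at 0 in 2 of the EET libraries and in 1 control.

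Leukocytes carry much immunoproteasome. EET 1 had the highest leukocyte marker sum, of which Lyz2 made up 283 CPM, and the highest Psmb8 of the EET libraries, while Psmb10 was highest in EET 2. Of the EET libraries, EET 1 was also the highest in the standard genes Psmb5, Psmb6 and Psmb7. The leukocyte genes Ptprc and Csf1r were lower with EET, at 8.33, 5.89 and 7.18 and 16.0, 10.5 and 13.2 CPM, against 12.1, 15.5 and 14.5 and 19.8, 19.0 and 20.4 CPM in controls. Of the 7 leukocyte markers tested the other 5 did not pass, and 2 had fold changes above 0, Itgam (log2 0.14) and Cd68 (0.0046). With the mRNA-length trend described further on removed, Itgam was higher, at 0.42, and Ptprc and Cd68 were lower, at −0.67 and −0.69. Csf1r stood at −0.31 in that fit without passing. Without EET 1 the log2 fold change was 0.62 for Psmb8 and 1.13 for Psmb10. Set against its standard counterpart per kilobase of mRNA, Psmb8 stood at 5.00 ± 0.531% of Psmb5 in EET libraries and 5.47 ± 0.512% in controls, with overlapping groups (SD, n = 3 each). Psmb9 stood at 1.18 ± 0.0385% of Psmb6 with EET and 1.60 ± 0.321% in controls, lower in 3 of 3 EET libraries. Psmb10 stood at 10.6 ± 1.14% of Psmb7 with EET and 7.95 ± 0.801% in controls, higher in 3 of 3 EET libraries. The ratios were not tested, and as counted the 3 did not move in a common direction. They compare mRNAs of unequal length. With the mRNA-length trend described further on removed, the log2 fold changes were 0.31 for Psmb8 and −0.0058 for Psmb5, 0.011 for Psmb9 and 0.062 for Psmb6, and 0.49 for Psmb10 and −0.014 for Psmb7. With coding length they were 0.36 for Psmb8 and 0.44 for Psmb5, so which of these was larger depended on the fit.

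**Figure D2:**
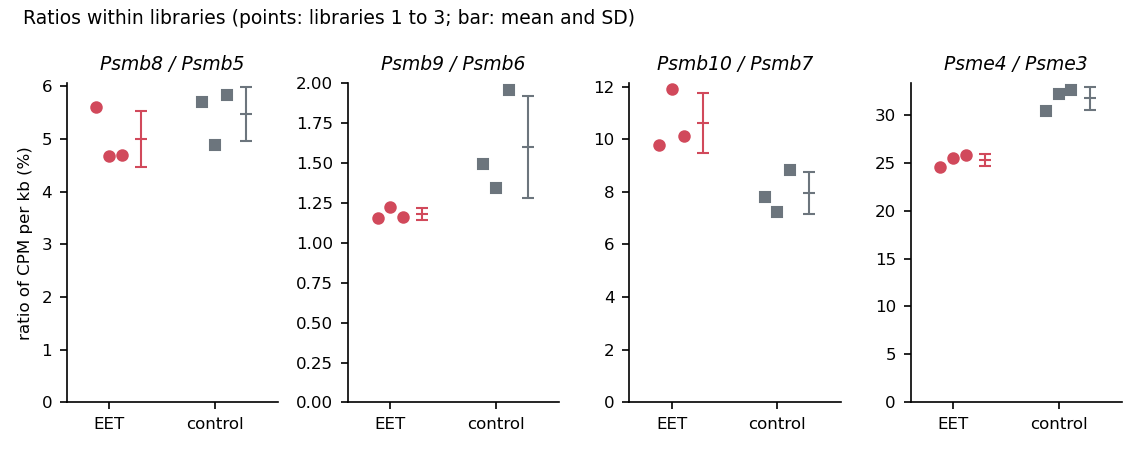
Ratio of CPM per kilobase of mRNA, in percent, of each immunoproteasome gene to its standard counterpart and of Psme4 to Psme3, on axes that start at 0. Points are single libraries and the bars give mean and SD (n = 3), with EET left of control. As counted, Psmb10 over Psmb7 was higher in the 3 EET libraries, Psmb9 over Psmb6 and Psme4 over Psme3 were lower, and Psmb8 over Psmb5 overlapped.

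The ratio of Psme4 to Psme3, the nuclear activators, was 25.3 ± 0.651% in EET libraries and 31.7 ± 1.20% in controls (SD, n = 3 each), with no overlap. The annotated mRNA of Psme4 is 6491 bases and that of Psme3 2664 bases. With the trends of length described further on removed, the log2 fold change of Psme4 was above that of Psme3, at 0.036 and −0.18 with mRNA length, 0.058 and −0.14 with the principal transcript and 0.32 and −0.39 with coding length, so the direction of this ratio turned.

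All 7 genes for assembly chaperones rose as counted, with a median log2 fold change of 0.73. With the mRNA-length trend described further on removed 2 were higher and 0 lower (all genes, 17.1% and 17.1%), and with coding length 6 and 0 (all genes, 21.9% and 19.7%). Psmg1 and Psmg2, which together guide the alpha ring, had 48.0 ± 1.46 and 45.1 ± 4.66 CPM with EET, against 28.6 ± 2.66 and 27.2 ± 2.03 CPM in controls (mean ± SD, n = 3 each). Psmg3 and Psmg4, which form a second chaperone pair, were less abundant. Psmg4 had 9.47, 11.4 and 5.75 CPM with EET and 3.31, 3.27 and 2.23 CPM in controls, the largest fold change of the family as counted (log2 1.59 ± 0.24, edgeR adjusted p = 8.11e-05) with EET 3 well below the other EET libraries. Its mRNA is 555 bases, and with the mRNA-length trend removed it stood at 0.40 without passing (edgeR adjusted p = 0.0938). It was higher with the principal transcript, at 0.51, and with coding length, at 0.75. Psmg3 had 12.7, 11.8 and 9.04 CPM with EET and 6.57, 5.30 and 5.02 CPM in controls (log2 fold change 0.99 ± 0.16).

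The chaperones of the ATPase ring, Psmd5, Psmd9 and Psmd10, rose by 0.40, 0.70 and 0.67 on the log2 scale. Psmd5 (chr2:34849734-34874968, minus strand) had 141, 143 and 139 CPM with EET and 112, 102 and 107 CPM in controls, values with little spread in either group. Psmd9 had 58.7, 55.7 and 48.3 CPM with EET and 35.5, 32.9 and 31.7 CPM in controls, and shares 1849 exonic bases with the antisense gene Gm26745. Psmd10, also known as the oncoprotein gankyrin, had 37.2, 35.4 and 31.6 CPM with EET and 23.3, 20.5 and 21.7 CPM in controls. In all 3 genes the EET libraries lay above the controls.

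Psmc3ip, the gene outside the proteasome, had 26.6, 24.2 and 20.8 CPM with EET and 12.7, 11.7 and 11.4 CPM in controls (log2 fold change 1.00 ± 0.11). Of the 5 pseudogene rows left out, Psma5-ps had 22, 18 and 24 counts with EET and 20, 22 and 20 counts in controls, and the others had at most 1 count in any library.

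The fold changes of the proteasome genes followed the length of their mRNAs. Length was taken as that of the longest protein-coding transcript in GENCODE M21. All 24 tested genes with an mRNA under 1500 bases rose (median log2 fold change 0.75), and so did all 13 of 1500 to 2500 bases (median 0.45). Of the 10 genes of 2500 bases and over, 4 rose and 2 fell, with a median of 0.026. Among all 13802 protein-coding genes with a length, 71.7% of those under 1500 bases rose (median 0.74), 48.6% of those of 1500 to 2500 bases (median 0.30) and 9.92% of those of 2500 bases and over (median −0.20), while 38.7% of this last class fell. In the shortest class the proteasome median was thus close to that of all genes of that length. Spearman's rho between log2 fold change and mRNA length was −0.74 across the 47 proteasome genes and −0.68 across all protein-coding genes. These are descriptions across genes, which share the same 6 libraries and are not independent.

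The direction of the trend separated the groups. The slope of log2 level on log2 mRNA length, relative to the mean of all 6 libraries, was −0.27, −0.21 and −0.11 per doubling of length in EET libraries and 0.12, 0.24 and 0.24 in controls. EET 3 and control 1, the libraries with the slopes nearest to 0, were also those whose proteasome levels lay nearest to the other group. Median mRNA length was 1162.5 bases in the core genes, 1785 in the base, 1969 in the lid, 1112 in the activators and 1300 in the assembly genes.

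**Figure D3:**
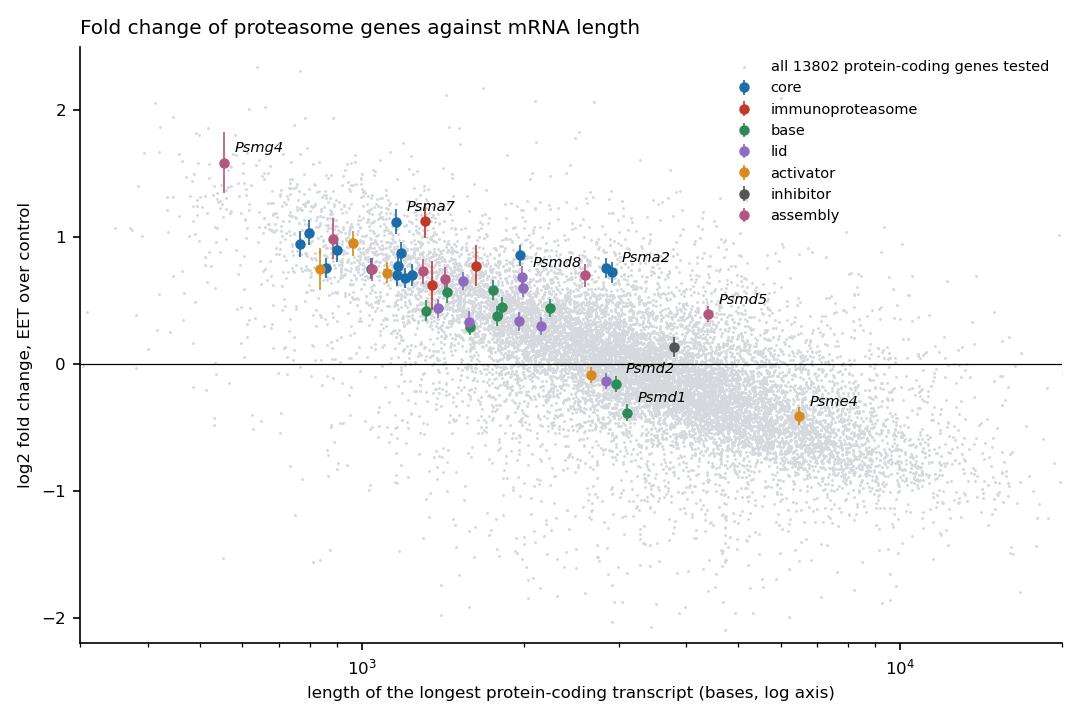
Log2 fold change, EET over control, of each tested proteasome gene (coloured by its place in the complex, bars give the SE) and of all protein-coding genes tested (grey points, the few beyond the axes not drawn) against the length of the longest protein-coding transcript in bases on a log axis. Proteasome genes under 2500 bases lie above 0, and Psmd1 and Psme4, at 3112 and 6491 bases, lie below it.

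When the dependence of each library on the length and GC content of mRNAs was removed, 14 of the 47 proteasome genes were higher and 9 lower at an adjusted p under 0.05, and the median log2 fold change was 0.042. Over the 13802 protein-coding genes in that fit 17.1% were higher and 17.1% lower. With the length of the APPRIS principal transcript in place of the longest, 15 were higher and 7 lower (all genes, 17.4% and 17.1%). With coding length, which leaves out the untranslated regions, 40 were higher and 2 lower with a median of 0.42 (all genes, 21.9% and 19.7%). The trend that remained differed too: after removal of the coding-length trend rho with mRNA length was still −0.35 in proteasome genes and −0.27 in all protein-coding genes, and after removal of the mRNA-length trend it was 0.20 and 0.016. The number of proteasome genes called thus depended on which length was used. Whether the length trend arose in the cells or in the preparation of the libraries was not tested.

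The 12 genes that were higher in all 4 fits were Psma2, Psma3, Psma7, Psmb1, Psmb4, Psmb10, Psmc6, Psmd5, Psmd8, Psmd9, Psmd13 and Psmd14. The share of all genes higher, or lower, in all 4 fits was not counted here, so this number has no background beside it. In the single fits 17.1 to 24.6% of all genes were higher and 17.1 to 23.3% lower. Psma7 had a log2 fold change of 0.39 with the mRNA-length trend removed, 0.27 with the principal transcript and 0.76 with coding length. For Psmb1, a beta subunit that does not cut, these values were 0.56, 0.52 and 0.59. For the deubiquitinase Psmd14 they were 0.18, 0.22 and 0.52, and for Psmb10 0.49, 0.52 and 0.69. Psma2 and Psma3 had log2 fold changes of 0.63 and 0.65 with the mRNA-length trend removed. Their annotated mRNAs are 2911 and 2846 bases for coding lengths of 702 and 765, and the counts do not show which transcript the cells made. Psmd5, whose mRNA is 4397 bases, had 0.62, a larger value than the 0.40 it had as counted.

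No proteasome gene was lower in all 4 fits. Psmd11 and Psme3 were lower in the 3 fits with a trend removed and not as counted, at −0.18 and −0.18 with the mRNA-length trend removed (edgeR adjusted p = 0.00396 and 0.00654). Psmd1 stayed lower with the mRNA-length trend removed, at −0.38, and stood at 0.015 with coding length, where it did not pass. Psme4 was at 0.036 with the mRNA-length trend removed and was higher, at 0.32, with coding length, so its direction depended on the fit. Psmb9, Psmd7 and Psmg3, which rose as counted, did not pass with coding length, at 0.094, 0.14 and 0.14, while Psmd2 was higher there, at 0.20, and lower with the mRNA-length trend removed, at −0.18. Psmb2, Psmc1, Psmc5, Psmd6 and Psmd7 rose as counted and were lower with the mRNA-length trend removed, at −0.17, −0.16, −0.20, −0.13 and −0.14. With the principal transcript Psmd6 and Psmd7 did not pass, at −0.077 and −0.097. With coding length Psmb2, Psmc1, Psmc5 and Psmd6 were higher, at 0.30, 0.28, 0.32 and 0.40. The catalytic genes Psmb5, Psmb6 and Psmb7 stood at −0.0058, 0.062 and −0.014 with the mRNA-length trend removed and did not pass. They were higher with coding length, at 0.44, 0.55 and 0.45.

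**Figure D4:**
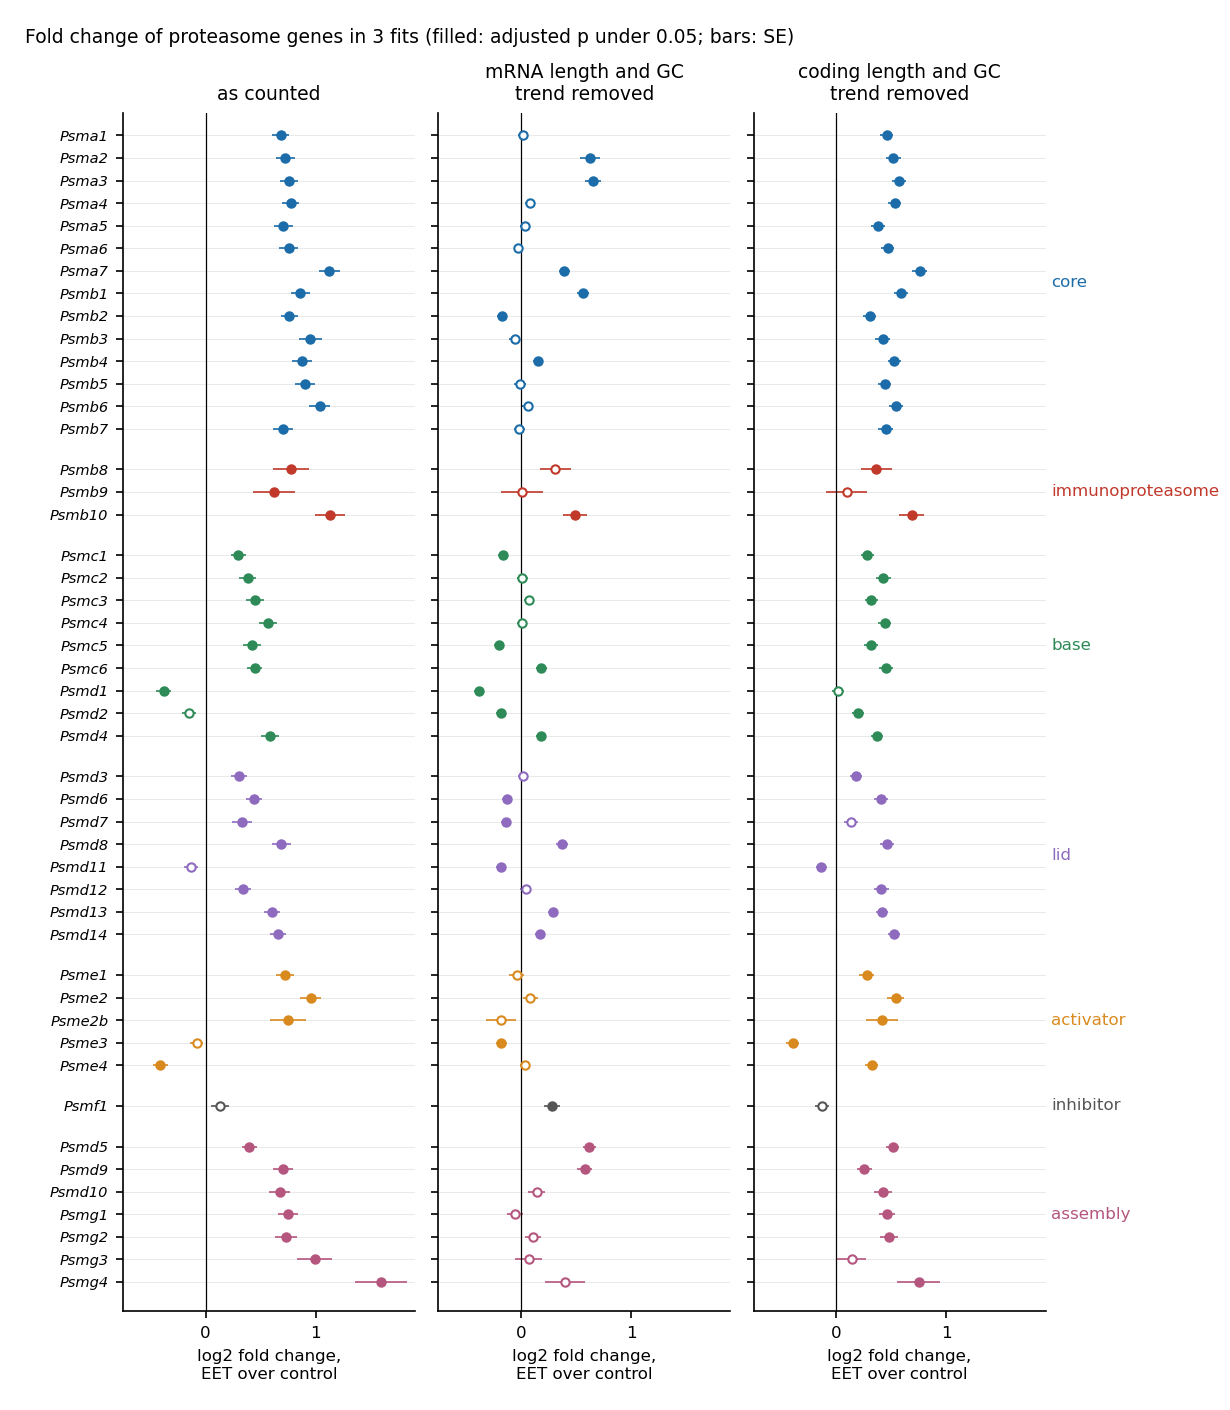
Log2 fold change with its SE, EET over control, of the 47 tested proteasome genes as counted, with the trend of mRNA length and GC content removed, and with the trend of coding length and GC content removed. Filled points have an adjusted p under 0.05. As counted 41 points are filled to the right of 0 and 2 to the left, in the middle panel 14 and 9, and in the right panel 40 and 2.

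Genes that work with the proteasome but lie outside the Psm names were examined from a list of 14 partners, of which 13 were in the table and tested. As counted 7 were higher and 3 lower, beside 24.6% and 23.3% of all genes tested. With the mRNA-length trend removed 6 were higher and 3 lower, beside 17.1% and 17.1% of the genes in that fit. Sem1, a very small lid protein also known for its role with Brca2, had 53.5, 54.6 and 38.6 CPM with EET and 16.5, 19.2 and 16.1 CPM in controls (log2 fold change 1.50 ± 0.13, edgeR adjusted p = 1.35e-06), and stood at 1.03 with the mRNA-length trend removed. Pomp, the maturation factor of the core particle, had 143, 136 and 112 CPM with EET and 76.7, 71.3 and 66.5 CPM in controls (log2 fold change 0.87 ± 0.090). It was higher in all 4 fits, at 1.02, 0.44 and 0.26 with the trends removed. Adrm1, the ubiquitin receptor of the base, rose as counted (log2 0.40) and was lower, at −0.15, with the mRNA-length trend removed. Uchl5, the deubiquitinase that Adrm1 recruits, and Txnl1, a thioredoxin of the regulatory particle, rose by 0.51 and 0.58 on the log2 scale. With the mRNA-length trend removed Txnl1 was higher, at 0.74, and Uchl5 stood at 0.15 without passing. With coding length both were higher, Txnl1 at 0.46 and Uchl5 at 0.44.

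In the list of 10 genes around Nrf1, 0 rose and 2 fell in edgeR, with 0 higher also at an unadjusted p under 0.05 and in DESeq2, beside 24.6% and 23.3% of all genes tested. These genes have long mRNAs, with a median of 3390 bases, and of all protein-coding genes of 2500 bases and over 9.92% rose and 38.7% fell. The list gave 1 higher and 1 lower with the mRNA-length trend removed (all genes, 17.1% and 17.1%), and 2 higher and 5 lower with coding length (all genes, 21.9% and 19.7%). Nfe2l1 itself, which encodes Nrf1, had 200.04, 195 and 219.9 CPM with EET and 264, 258 and 256 CPM in controls, and it fell (log2 fold change −0.34 ± 0.067, edgeR adjusted p = 0.00063). Ddi2, the protease that releases active Nrf1, had 39.1, 46.6 and 55.0 CPM with EET and 70.1, 84.7 and 82.4 CPM in controls, and it also fell (log2 fold change −0.75 ± 0.11). In both Nfe2l1 and Ddi2 all EET libraries were below all controls. Ddi2 shares 1749 exonic bases with Rsc1a1 on the same strand. With the mRNA-length trend removed the values were −0.083 for Nfe2l1 and −0.13 for Ddi2, neither of which passed, and with coding length they were −0.17 and −0.80, both lower. Nfe2l2, which encodes the related factor Nrf2, had 194 ± 2.11 CPM with EET and 199.5 ± 11.4 CPM in controls (mean ± SD, n = 3 each) and did not pass (log2 fold change −0.038, edgeR adjusted p = 0.67). It was lower with the mRNA-length trend removed, at −0.17, and with the principal transcript, at −0.13, but stood at 0.13 with coding length without passing. Vcp, the ATPase that draws Nrf1 out of the endoplasmic reticulum, and Maff, a small partner of Nrf1, had log2 fold changes of −0.10 and 0.18 and did not pass either. Nrf1 is controlled largely by the processing of its protein, which mRNA counts do not measure.

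A further list held 16 genes for ubiquitin and the proteins that bring substrates to the proteasome. As counted 6 rose and 7 fell, beside 24.6% and 23.3% of all genes tested. With the mRNA-length trend removed 3 were higher and 3 lower, which is near the 17.1% and 17.1% of all genes in that fit. With coding length 5 were higher and 3 lower (all genes, 21.9% and 19.7%). The ubiquitin fusion gene Rps27a had 696, 735 and 516 CPM with EET and 205, 203 and 189 CPM in controls (log2 fold change 1.71 ± 0.11), and it stayed higher, at 0.73, with the mRNA-length trend removed. Rps27a also encodes a ribosomal protein, and reads from its pseudogene copies may be split. Ubb, a polyubiquitin gene, had 614, 584 and 497 CPM with EET and 397, 385 and 369 CPM in controls and rose by 0.56 on the log2 scale. With the mRNA-length trend removed it stood at 0.030 and did not pass, and with coding length it was higher, at 0.24. Uba6, an enzyme that activates ubiquitin, had 37.4, 40.2 and 45.5 CPM with EET and 61.0, 76.8 and 73.2 CPM in controls and fell (log2 fold change −0.78 ± 0.099), and was still lower with the mRNA-length trend removed, at −0.41.

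The 23 genes of class I presentation and interferon signalling gave 6 higher and 8 lower as counted, beside 24.6% higher and 23.3% lower over all genes tested. With the mRNA-length trend removed they gave 5 higher and 6 lower (all genes, 17.1% and 17.1%). With coding length they gave 3 higher and 4 lower (all genes, 21.9% and 19.7%). As counted the share higher was near that of all genes. Of the interferon-inducible proteasome genes Psmb8, Psmb9, Psmb10, Psme1 and Psme2, which all rose as counted, Psmb10 alone was higher with the mRNA-length trend removed. With coding length Psmb8, Psmb10, Psme1 and Psme2 were higher, at 0.36, 0.69, 0.28 and 0.54, and Psmb9 stood at 0.094 without passing. Stat2, Jak1, Jak2 and Erap1, which encode a transcription factor and kinases of interferon receptors and a peptide-trimming protease, fell by 0.77, 0.63, 0.42 and 0.48 on the log2 scale. Nlrc5, the transactivator of class I genes, had 3.76, 3.62 and 3.76 CPM with EET and 5.54, 6.11 and 7.12 CPM in controls and fell (log2 fold change −0.75 ± 0.16). With the mRNA-length trend removed Stat2 and Jak1 remained lower, at −0.53 and −0.32, and Jak2, Erap1 and Nlrc5 stood at −0.11, −0.14 and −0.15 without passing. Irf1, an interferon-induced factor that drives immunoproteasome genes, had 19.9, 22.2 and 19.9 CPM with EET and 17.7, 18.2 and 16.2 CPM in controls (log2 fold change 0.25 ± 0.098, edgeR adjusted p = 0.0461), a call that several alternatives did not keep.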

How the data were processed

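Per the labels' protocols, poly(A) RNA of muscle stem cells was fragmented and sequenced in pairs, with dUTP marking of the second strand. The authors deposited raw counts, whole numbers for each gene symbol in each library. Per the submitters' processing notes, FastQC, cutadapt and DESeq2 were used with GRCm38. Not given in the sources used here are the aligner, the counter and its use of strand. Of 55494 rows 25226 had no counts. Even numbers made up 65.0 to 65.6% of counts from 11 to 50 in EET libraries and 61.3 to 62.1% in controls, so halved counts (divided by 2) were fitted as an alternative. No pair of libraries in a group agreed within sampling noise (chi-square per gene at least 5.92).

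Counts of 3 EET and 3 control libraries were fitted without a block with edgeR 4.0.16 under R 4.3.3 (filterByExpr, TMM scaling, robust glmQLFit, glmQLFTest). Calls required an adjusted p (Benjamini-Hochberg, over all 16097 genes tested) under 0.05, and "rose", "fell", "higher" and "lower" of genes mean called ones. CPM values use TMM scaling, and fold changes carry the SE of the fit. The code was tested on simulated counts. Coordinates, lengths and GC content are from GENCODE M21 (GRCm38), in which all 50 symbols were matched. Trends with length and GC were smoothed with robust loess (span 0.3), library by library, and entered as an offset. Fits with the principal transcript, with coding length, and with a library left out as well were chosen after seeing the data. Other fits used RLE scaling or library totals, left out the filter or kept genes over 5 CPM in 3 libraries, or used DESeq2 1.42.0, limma-voom (limma 3.58.1), estimation that was not robust, a replicate block or 1 library fewer. The members and lists were chosen with earlier results of these data known. Every gene of the family is reported, and from each of the 4 other lists the 4 genes with the smallest p are named, besides Adrm1, Sem1, Pomp, Nfe2l1, Nfe2l2, Irf1 and Nlrc5, which are always named. Results for 2 further genes under this rule are not reported here.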

Additional observations from a re-analysis of the deposited data

How the results depend on the processing

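The count of 41 proteasome genes higher stayed at 40 or 41 under RLE scaling, library totals, no filter, the 5 CPM filter, DESeq2, limma-voom, no robust estimation and counts divided by 2. With the coding-length trend removed it was 40, of which 38 were among the 41. It ranged from 40 to 41 when each library was left out. It was 14 with the trend of mRNA length and GC removed and 15 with the principal transcript. The count of 2 lower became 4 with library totals, 3 under RLE scaling, DESeq2, limma-voom and the 5 CPM filter, 9 with the mRNA-length trend removed, 7 with the principal transcript and 2 with coding length, and ranged from 2 to 3 when each library was left out. With the mRNA-length trend removed and a library left out, 14 to 15 were higher and 5 to 8 lower, the 5 without control 2. As counted, Psmb9 alone of the 41 was lost in some of the fits that leave out a library, and the 5 CPM filter removed it. Over all genes, library totals gave 3418 higher and 4349 lower, against 3967 and 3749 with TMM scaling.

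Libraries with equal replicate numbers share only the number: their deviations correlated at −0.0035, −0.050 and 0.0089, and not every library correlated best with its own number. The block gave 4238 genes higher and 4083 lower over all genes. With the replicate number as a block 41 proteasome genes were higher and 4 lower, and together with the mRNA-length trend removed 14 and 9.

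Log2 fold changes, EET over control, that changed sign are listed by setting, and the cause was not tested beyond the removal itself. With the mRNA-length trend removed they were Psma6 −0.023, Psmb2 −0.17, Psmb3 −0.057, Psmb5 −0.0058, Psmb7 −0.014, Psmc1 −0.16, Psmc5 −0.20, Psmd6 −0.13, Psmd7 −0.14, Psme1 −0.037, Psme2b −0.18, Psme4 0.036, Psmg1 −0.052, Maff −0.16, Adrm1 −0.15 and Irf1 −0.0051. With the block as well they were Psma6 −0.023, Psmb2 −0.17, Psmb3 −0.057, Psmb5 −0.0056, Psmb7 −0.014, Psmc1 −0.16, Psmc5 −0.20, Psmd6 −0.13, Psmd7 −0.14, Psme1 −0.037, Psme2b −0.18, Psme4 0.035, Psmg1 −0.054, Maff −0.16, Adrm1 −0.15 and Irf1 −0.0051. With the principal transcript they were Psmb2 −0.12, Psmb3 −0.012, Psmc1 −0.12, Psmc5 −0.16, Psmd6 −0.077, Psmd7 −0.097, Psme1 −0.0099, Psme2b −0.12, Psme4 0.058, Psmg1 −0.0097, Maff −0.14 and Adrm1 −0.12. With coding length they were Psmd1 0.015, Psmd2 0.20, Psme4 0.32, Psmf1 −0.13, Maff −0.58, Vcp 0.20, Jak2 0.076 and Nfe2l2 0.13. Leaving out each library in turn moved Nfe2l2 between −0.081 and 0.00087, the last without control 1.

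Depth limits the low genes: Psma8 and Psmb11 had too few counts to be tested, and differences in them were not detectable at this depth.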
